A study of Rattus norvegicus with 20 samples.

Results

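A set of 7 erythroid genes, of the 19060 genes in the deposited table, was followed through the lungs of 20 rats. They were chosen by symbol: Hbb (gene ID 24440), Hba-a2 (360504), Alas2 (25748), Ahsp (293522), Slc4a1 (24779), Epb42 (362202) and Hemgn (113882). All 7 passed the filter on low counts that left 14794 genes for testing. RNA had been taken from lung tissue, 1 library per animal, with 5 animals in each of 4 groups. CLP+VNS rats had caecal ligation and puncture, an abdominal operation used in this study as a model of acute respiratory distress syndrome, together with stimulation (VNS) of the vagus nerve on the right side of the neck. CLP rats had that operation alone. Sham+VNS rats had an opened abdomen with the caecum handled but neither tied nor pierced, and the same nerve stimulation. Sham rats had the sham operation alone. The labels used here give no strain, age, sex or time from operation to tissue collection, and do not say whether blood was flushed from the lungs.

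Red cells of mammals lose their nucleus but keep messenger RNA for a while as reticulocytes, so blood held in the vessels of a tissue brings globin RNA into its libraries. Haemoglobin is built of alpha and beta globin chains, each carrying haem. ALAS2 makes the rate-limiting first step of haem synthesis in erythroid cells, AHSP binds free alpha globin until it meets a beta chain, and SLC4A1 (band 3) exchanges chloride and bicarbonate across the red cell membrane. EPB42 (protein 4.2) ties band 3 to the membrane skeleton, and HEMGN is a nuclear protein of maturing erythroid cells.

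The rat globin genes lie in clusters of close copies, and sequence before the start sites shows both what erythroid promoters hold and how alike the copies are. The 250 bases before the annotated start were taken from RefSeq (assembly GRCr8, not the assembly to which the reads were aligned) for 5 of the 7 genes, 6 windows in all because Hemgn had 2 starts. Ahsp and Slc4a1 had no entry. Windows were searched on both strands for AGATAA and TGATAA, the letters bound by GATA factors, for CCACACCC, a KLF1-type box, and for CCAAT; no matches overlapped, and the 2 of CCAAT in the Hbb window adjoin. Capitals mark the matches in the windows of Hbb (chr1:167663722-167663971, minus strand), Hba-a2 (chr10:15829139-15829388, minus), Alas2 (chrX:22895200-22895449, plus) and the second start of Hemgn (chr5:65485822-65486071, minus), which are shown because each holds a match.
Hbb: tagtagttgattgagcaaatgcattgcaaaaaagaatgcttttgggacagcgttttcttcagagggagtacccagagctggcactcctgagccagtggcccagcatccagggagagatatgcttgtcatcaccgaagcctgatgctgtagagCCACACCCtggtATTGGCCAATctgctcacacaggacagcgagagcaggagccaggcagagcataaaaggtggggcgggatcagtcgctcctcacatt
Hba-a2: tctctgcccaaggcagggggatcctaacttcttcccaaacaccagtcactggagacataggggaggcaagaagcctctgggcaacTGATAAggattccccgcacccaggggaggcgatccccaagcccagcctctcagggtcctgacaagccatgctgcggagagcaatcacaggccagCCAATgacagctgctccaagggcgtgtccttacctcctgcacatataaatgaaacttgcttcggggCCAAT
Alas2: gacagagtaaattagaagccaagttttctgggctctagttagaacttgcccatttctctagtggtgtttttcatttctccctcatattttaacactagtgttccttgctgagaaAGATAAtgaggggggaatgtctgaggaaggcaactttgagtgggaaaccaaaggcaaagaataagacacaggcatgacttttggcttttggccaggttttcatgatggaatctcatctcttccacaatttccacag
Hemgn: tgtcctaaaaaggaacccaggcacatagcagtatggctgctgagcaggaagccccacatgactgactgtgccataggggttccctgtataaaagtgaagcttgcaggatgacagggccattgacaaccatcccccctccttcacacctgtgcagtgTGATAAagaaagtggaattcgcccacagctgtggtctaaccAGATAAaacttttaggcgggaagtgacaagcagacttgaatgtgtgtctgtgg
In the Hbb window CCACACCC began 98 bases before the start, and CCAAT lay at 81 bases on the given strand and at 86 on the opposite one. Hba-a2 held TGATAA at 165 bases and CCAAT at 71 and 5 bases. Alas2 held AGATAA at 136 bases, and the second Hemgn start held TGATAA at 94 and AGATAA at 53 bases. The windows of Epb42 and of the first Hemgn start held none of the 4. AGATAA or TGATAA thus stood in 3 of 6 windows, while 16.9% of all 33469 rat windows of this length held one of them. CCACACCC was in 2.84% of all windows and CCAAT in 34%. The windows of Hba-a1 and Hba-a2 differed at 9 of 250 bases.

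Library totals were alike: 13729654 to 14275406 counts in CLP+VNS, 13806220 to 14327215 in CLP, 13869123 to 14453188 in Sham+VNS and 13785062 to 14186121 in Sham. Globin genes together took 0.508 to 1.03% of counts in CLP+VNS, 0.308 to 0.593% in CLP, 0.417 to 0.792% in Sham+VNS and 0.332 to 0.655% in Sham. The lowest share, in CLP replicate 1, had an exact 95% interval of 0.305 to 0.311%, and the highest, in CLP+VNS replicate 5, one of 1.03 to 1.04%. Such intervals cover counting error only. Fewer red cells and less RNA per red cell cannot be told apart in whole tissue. Klf1, the erythroid transcription factor, was present at low level, with means of 0.688, 0.737, 0.726 and 0.717 CPM in CLP+VNS, CLP, Sham+VNS and Sham.

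Per transcript length, the order of the genes was steep. Over the 20 libraries Hbb averaged 7549 ± 2571 TPM (SD), and Hba-a2 5673 ± 1755 TPM. Alas2 followed at 31.7 ± 11.3 TPM and Ahsp at 10.4 ± 5.11 TPM. Slc4a1 averaged 1.26 ± 0.514 TPM, Hemgn 1.05 ± 0.470 TPM and Epb42 0.552 ± 0.282 TPM. Hbb and Hba-a2 overlapped in range, as did Slc4a1, Hemgn and Epb42. Alas2, from 16.4 to 55.8 TPM, also overlapped Ahsp, from 3.83 to 25.5 TPM. Among the other globin genes Hba-a1 averaged 12008 TPM, Hbb-b2 1208, Hbb-b1 1121, Hbbl1 869, Hbb-bs 433, Hba-a3 169 and Hbq1b 2.72 TPM. The embryonic globin gene Hbe1 and Hbq1 had 19 and 2 counts in all libraries together and were not tested. No count of Hbb, Hba-a1, Hba-a2, Hbb-b1, Hbb-b2, Hbb-bs or Hbbl1 was a whole number, and all counts of the other members were whole, so the values of single major globin genes are uncertain; how shared reads were divided is not stated.

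**Figure D1:**
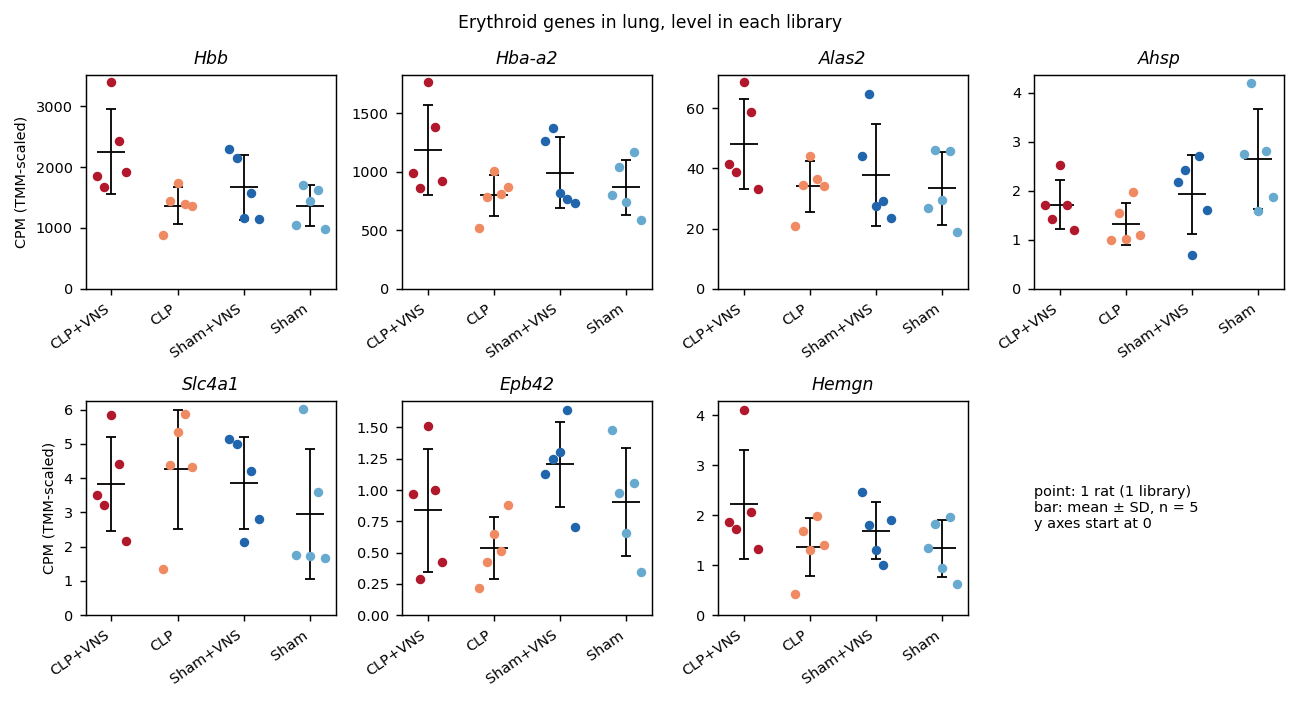
CPM (counts scaled to the TMM-adjusted library total) of each gene in each of the 20 libraries, with 1 point per rat, the mean as a bar and the SD as whiskers, on linear axes from 0. The Ahsp mean was lowest in CLP, at 1.33 CPM, and highest in Sham, at 2.64 CPM, and groups overlapped for every gene.

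Between CLP and Sham 1 of the 7 genes was called. Ahsp fell by 0.99 on the log2 scale, while Hba-a2, whose product it binds, had a change of -0.12. Of all genes tested, 40.3% were called in this comparison, 19.8% as higher and 20.5% as lower, so 1 call in 7 is no more than the background share. That was 2926 genes higher and 3029 lower, against 2347 and 3756 with library totals in place of TMM. In none of the 4 comparisons did the groups part without overlap for any of the 7, where 26.1% of all genes did so in CLP against Sham, 18.9% in CLP+VNS against Sham+VNS, 2.26% in CLP+VNS against CLP and 0.798% in Sham+VNS against Sham. Ahsp stood at 1.00, 1.55, 1.01, 1.98 and 1.10 CPM in CLP, against 2.75, 4.19, 1.60, 2.81 and 1.86 CPM in Sham. The groups overlapped: 1 CLP library, replicate 5, lay above the 2 lowest Sham libraries. The log2 change was -0.99 ± 0.33 (SE; 95% interval -1.68 to -0.30; edgeR adjusted p 0.0224). These values rest on 14 to 27 counts per library in CLP and 22 to 60 in Sham. The call was lost without Sham replicate 2 (-0.76, adjusted p 0.0805), without CLP replicate 1 (-0.90, 0.0544), without CLP replicate 4 (-0.90, 0.0546) and without CLP replicate 6 (-0.93, 0.0512).

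Hbb stood at 891, 1448, 1741, 1397 and 1366 CPM in CLP, against 1054, 1712, 1446, 1631 and 982 CPM in Sham. The lowest and the highest library were both CLP animals, and the log2 change was 0.00 ± 0.24 (95% interval -0.49 to 0.50; adjusted p 0.991). Hba-a2 averaged 799 ± 177 CPM in CLP and 868 ± 234 CPM in Sham, a log2 change of -0.12 ± 0.24. Alas2 averaged 34.0 ± 8.44 CPM in CLP and 33.4 ± 12.1 CPM in Sham, a log2 change of 0.03 ± 0.30. The interval of Hba-a2 was -0.62 to 0.38 and that of Alas2 -0.60 to 0.65, so changes of that size are not excluded by these data. Epb42 averaged 0.537 ± 0.250 CPM in CLP and 0.903 ± 0.429 CPM in Sham (-0.74 ± 0.44, adjusted p 0.195). Slc4a1 averaged 4.26 ± 1.75 CPM in CLP and 2.95 ± 1.89 CPM in Sham (0.53 ± 0.40, adjusted p 0.318). Hemgn averaged 1.36 ± 0.584 CPM in CLP and 1.34 ± 0.569 CPM in Sham (0.02 ± 0.39). The median log2 change of the 7 was 0.004, and of all genes tested -0.013. Neutrophil marker transcripts summed to 29810 to 43830 TPM in CLP against 2802 to 7632 TPM in Sham, and T cell markers to 50.9 to 59.1 TPM in CLP against 98.8 to 166 TPM in Sham; their part in the Ahsp result was not tested.

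Under stimulation the operation changed none of the 7 genes past the threshold, in a comparison that called 27.3% of all genes, 13.9% as higher and 13.4% as lower. Ahsp stood at 1.72, 1.43, 2.52, 1.71 and 1.19 CPM in CLP+VNS, against 2.18, 2.43, 0.686, 2.71 and 1.62 CPM in Sham+VNS, with a log2 change of -0.17 ± 0.33 (95% interval -0.85 to 0.52). Hbb averaged 2251 ± 698 CPM in CLP+VNS and 1667 ± 537 CPM in Sham+VNS, a log2 change of 0.43 ± 0.24 (adjusted p 0.195). Epb42 averaged 0.838 ± 0.494 CPM in CLP+VNS and 1.20 ± 0.339 CPM in Sham+VNS, a log2 change of -0.52 ± 0.41. The remaining log2 changes were 0.26 for Hba-a2, 0.35 for Alas2, -0.01 for Slc4a1 and 0.39 for Hemgn. Without CLP+VNS replicate 5 the change was 0.24 for Hbb, 0.07 for Hba-a2, 0.19 for Alas2, -0.84 for Epb42, -0.21 for Slc4a1 and 0.04 for Hemgn. Ahsp ran from -0.38 to -0.01 with any 1 library left out. Whether the effect of the operation on Ahsp differed between stimulated and unstimulated rats was tested as an interaction, 0.82 ± 0.47 on the log2 scale (95% interval -0.15 to 1.80; adjusted p 0.671), and did not pass. No gene of the table passed that test by edgeR, where 1217 (8.23%) had an unadjusted p below 0.05 and DESeq2 called 6.

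Stimulation after CLP went with higher means of Hbb and Hba-a2, without a call. The 6 tested genes of the list of other globins, not independent of the members, had positive changes (median 0.57, none called). The beta-like gene Hbbl1, not on that list, averaged 179 ± 147 CPM in CLP+VNS and 208 ± 81.8 CPM in CLP (log2 change -0.21 ± 0.63). Its CLP+VNS mean included 6.035 CPM in replicate 11, beside 101, 134, 283 and 373 CPM in replicates 1, 3, 5 and 8. Hbb stood at 1848, 1669, 3393, 2431 and 1913 CPM in CLP+VNS, against 891, 1448, 1741, 1397 and 1366 CPM in CLP. Only the lowest CLP+VNS library lay under the highest CLP library. The log2 change was 0.72 ± 0.24 (95% interval 0.22 to 1.22; unadjusted p 0.00738, adjusted p 0.217), and Hba-a2 had 0.57 ± 0.24 (adjusted p 0.322). This comparison called 0.027% of all genes, 4 in number and all lower, and 13% had an unadjusted p below 0.05. DESeq2 called 55 genes higher and 89 lower, and edgeR without CLP+VNS replicate 1 called 128 higher and 149 lower. Without CLP+VNS replicate 5 the log2 change was 0.52 for Hbb, 0.38 for Hba-a2, 0.34 for Alas2, 0.18 for Ahsp, 0.31 for Epb42 and 0.36 for Hemgn. Slc4a1 stayed negative with any 1 library left out, from -0.384 to -0.007. The summed counts of all beta globin genes had a log2 change of 0.58 (edgeR adjusted p 0.331), and those of all alpha globin genes 0.59 (0.310). Alas2 had a log2 change of 0.50 ± 0.30, Ahsp 0.36 ± 0.34, Epb42 0.63 ± 0.45, Hemgn 0.70 ± 0.38 and Slc4a1 -0.15 ± 0.40, none called. Of the 7 changes 6 were positive, with a median of 0.57, where 51.4% of all genes were positive and their median was 0.004. The 7 genes were correlated within groups, so these are not 7 separate observations. Endothelial markers summed to 1454 to 2415 TPM in CLP+VNS against 1340 to 1608 TPM in CLP, with 8 of 8 genes at positive log2 changes and none called. Of these 8, 7 had an unadjusted edgeR p below 0.05, beside the 13% of all genes. All 11 tested neutrophil markers and all 8 proliferation genes had negative changes, with medians of -0.48 and -0.77 and none called. The unadjusted edgeR p was below 0.05 for 4 of the 11 and 5 of the 8. The part of these cells in the globin values was not tested.

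Stimulation of sham-operated rats called none of the 7 and none of the 14794 genes by edgeR, with 1185 (8.01%) at an unadjusted p below 0.05 and 6 called by DESeq2. Hbb averaged 1667 ± 537 CPM in Sham+VNS and 1365 ± 332 CPM in Sham, a log2 change of 0.29 ± 0.24 (adjusted p 0.772). Ahsp averaged 1.93 ± 0.802 CPM in Sham+VNS and 2.64 ± 1.02 CPM in Sham, a log2 change of -0.46 ± 0.32 (adjusted p 0.733). The other 6 members had positive changes, and the median of the 7 was 0.29, where 47.8% of all genes were positive and their median was -0.006. The 6 tested genes of the list of other globins were positive too. Hbb-bs, Hbb-b2 and Hba-a1 among them followed the members within groups (r 0.942, 0.922 and 0.911). The members also followed each other, so these directions are not separate observations.

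**Figure D2:**
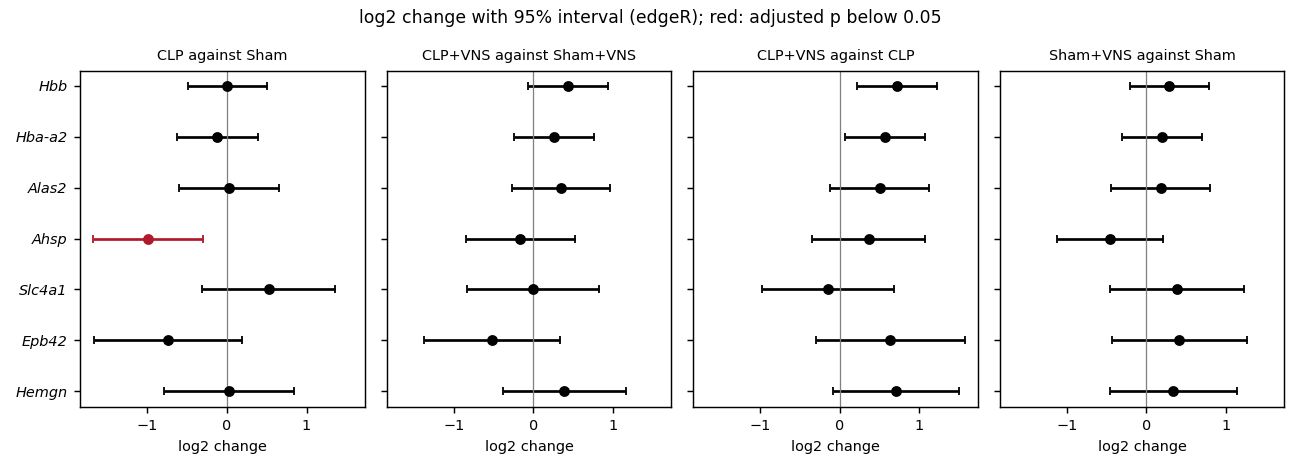
log2 change of each gene with its 95% interval from edgeR in the 4 comparisons, named above each panel, with the group named first on top of the change. The single red point is Ahsp in CLP against Sham, at -0.99; the intervals of Hbb and Hba-a2 in CLP+VNS against CLP lie above 0 but did not pass after adjustment.

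Within groups the genes moved together from animal to animal. After the group means of log2 CPM were subtracted, Pearson's r over the 20 libraries was 0.957 between Alas2 and Hba-a2, 0.919 between Hbb and Hba-a2 and 0.911 between Hbb and Alas2. Ahsp and Epb42 were the least alike, at 0.402. Ahsp had a median r of 0.567 with the other 6 genes and Epb42 one of 0.562, against 0.803 for Hba-a2. The points share a library. The 20 libraries together held 536 counts of Ahsp and 245 of Epb42, and 464 of Hemgn, whose median r was 0.726; the part of counting noise in these values was not tested. CLP replicate 1 was lowest, 0.81 log2 units under its group in the mean over the 7 genes, and CLP+VNS replicate 5 highest, 0.70 units above its group. Between animals of a group edgeR's biological coefficient of variation was 0.261 for Hbb, 0.264 for Hba-a2 and 0.323 for Alas2, where genes of like abundance had a trend of 0.126, 0.125 and 0.133. For Ahsp it was 0.315 against a trend of 0.309.

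**Figure D3:**
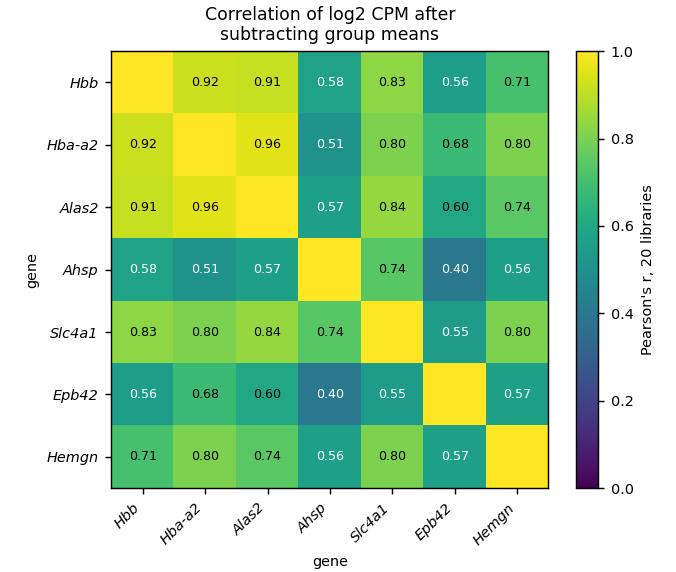
Pearson's r between each pair of the 7 genes over 20 libraries, on log2 CPM with group means subtracted; the colour scale runs from 0 to 1. Hbb, Hba-a2 and Alas2 form the block above 0.9, and Ahsp with Epb42 has the lowest value, 0.40.

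Among the 10 genes whose within-group pattern was most like the mean of the 7 were Hbb-bs (r 0.942), Hbb-b2 (0.922), Hba-a1 (0.911), Lgals5 (0.852), Bpgm (0.814), Ybx3 (0.803), Hbb-b1 (0.801), Olfm1 (0.786) and Fech (0.784), out of 14787 genes whose 95th percentile was 0.388. Bpgm makes the 2,3-bisphosphoglycerate that loosens oxygen from haemoglobin, and Fech sets iron into haem. With group means left in, 7 of the 10 were again among the first 10. Least alike were Psme3ip1 (-0.817), Dusp5 (-0.797), Trappc5 (-0.751), Med8 (-0.748) and Gadd45b (-0.728). Klf1 had 0.024 and Gata1 0.354, both at under 1 CPM.

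Relative to alpha globin, Ahsp stood at 0.453 ± 0.080 counts per 1000 alpha globin counts in CLP+VNS, 0.530 ± 0.175 in CLP, 0.630 ± 0.295 in Sham+VNS and 0.953 ± 0.264 in Sham (SD, n = 5 each). The mean log2 difference between CLP and Sham was -0.86 (two-sided exact permutation p 0.0238, adjusted p 0.317 over 32 such tests, 5 against 5 allowing no p below 0.00794). Alas2 stood at 6.92, 7.2, 6.53 and 6.70 counts per 1000 globin counts in CLP+VNS, CLP, Sham+VNS and Sham. None of the 32 ratio comparisons passed. A lone comparison at the smallest possible p could not have passed over 32 tests, so this outcome does not show that the ratios were unchanged. The ratios were chosen after the values had been seen.

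**Figure D4:**
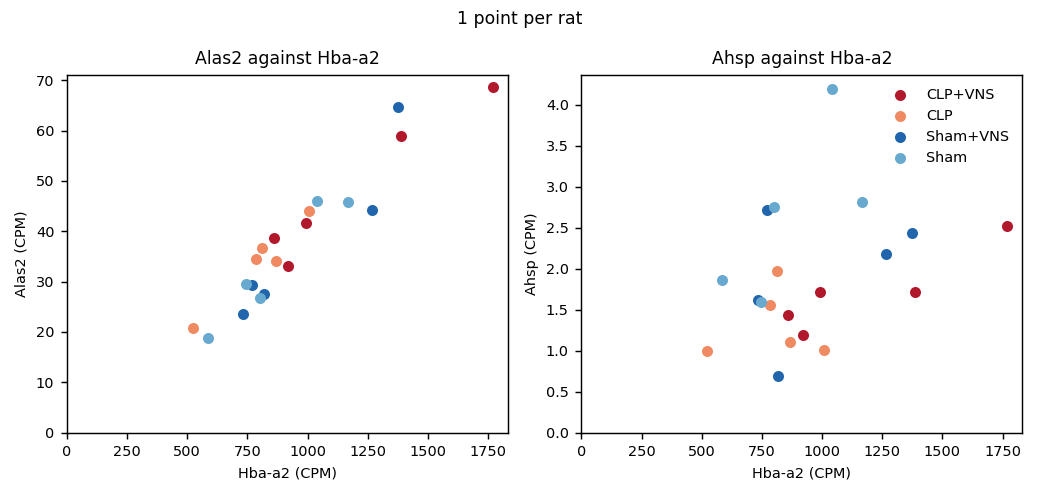
CPM of Alas2 (left) and Ahsp (right) against CPM of Hba-a2, with 1 point per rat and linear axes from 0. Alas2 followed Hba-a2 closely in all 4 groups (r 0.957 within groups), and Ahsp less so, with Sham replicate 2 highest at 4.19 CPM.

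Most other erythroid lists held genes called in both directions after CLP, beside a background of 19.8% of all genes higher and 20.5% lower. None of the 6 tested genes of the list of other globins was called in CLP against Sham, nor was Hbbl1, which is not on that list. Of 15 haem synthesis genes 2 were higher and 4 lower: Alad, the enzyme after ALAS2, averaged 33.8 CPM in CLP and 44.5 CPM in Sham (-0.40 ± 0.09, adjusted p 0.00125), Urod fell by 0.25, and Slc25a38, the mitochondrial glycine carrier, rose by 0.47 and the iron transporter Slc11a2 by 0.31. Of 18 membrane and skeleton genes 2 were higher and 5 lower, among them Stom (0.96 higher), Tmod1 (-0.52) and Bsg (-0.39), which many lung cells also express. Of 13 transcription factors and receptors 2 were higher and 4 lower; Nfe2 rose by 1.53, and Lmo2 and Zfpm1 fell by 0.59 and 0.51. Nfe2 is also expressed in other blood cells, and the neutrophil marker sums given above were higher in CLP too. The part of neutrophils in the Nfe2 value was not tested. Of 13 reticulocyte maturation genes 4 were higher and 1 lower, with Bcl2l1, a survival gene, at 181 CPM in CLP and 111 CPM in Sham (0.71 ± 0.15). Of 8 red cell metabolism genes 2 were higher, the glucose transporter Slc2a1 (0.61) and the water channel Aqp1 (0.46), and Car2, carbonic anhydrase 2, was lower (-0.78 ± 0.15, adjusted p 4.59e-04).

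In the list for clearance of haem and haemoglobin 8 of 14 tested genes were higher and 2 lower in CLP against Sham, with a median log2 change of 0.44 against -0.013 over all genes. Of all genes 19.8% were called higher and 20.5% lower. All 11 tested neutrophil markers were called higher in the same comparison, with a median log2 change of 3.11, and their part in the list's change was not tested. Hp, haptoglobin, which binds free haemoglobin, averaged 180 CPM in CLP and 21.3 CPM in Sham (3.08 ± 0.29, adjusted p 2.87e-07), and was called under stimulation too, at 148 CPM in CLP+VNS and 27.0 CPM in Sham+VNS (2.46 ± 0.28). Lrp1, the receptor for haem bound to haemopexin, rose by 0.59 and Flvcr1, described as a haem exporter, by 0.48, while Slc48a1 fell by 0.32. Under stimulation, where 13.9% of all genes were called higher and 13.4% lower, 6 of these 14 were higher and none lower. The 6 other lists had counts of higher and lower genes of 0 and 0 of 6, 2 and 3 of 15, 2 and 2 of 18, 2 and 2 of 8, 1 and 2 of 13 and 2 and 0 of 13, in the order other globin, haem synthesis, membrane, metabolism, transcription factors and reticulocyte maturation. None of these genes was called in CLP+VNS against CLP or in Sham+VNS against Sham.

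The beta-like gene Hbbl1 ran from 27.1 to 1642 TPM, and from 350.33 TPM upwards without CLP+VNS replicate 11. Hbbl1 per 100 Hbb counts was cut into ranges at the 2 largest gaps between its own sorted values. The ranges were 0.317 in CLP+VNS replicate 11, 5.44 to 8.34 in 8 libraries and 14.7 to 18.6 in 11 libraries. The gaps between ranges were 17.16-fold and 1.757-fold, and the largest gap within a range was 1.193-fold. The middle range held 3 CLP+VNS, 1 CLP, 2 Sham+VNS and 2 Sham libraries, and the upper range 1, 4, 3 and 3. Hbb-b1 per 100 Hbb counts followed, at 4.77 in the first, 9.72 to 11.9 in the middle and 16.1 to 19.2 in the upper range. Both ratios are taken to the same Hbb counts, and counts of these genes were not whole numbers, so the ratios are not independent. Hbb was 72.3 ± 7.10% of beta globin counts in CLP+VNS and 64.7 ± 3.57% in CLP (exact permutation p 0.0397, adjusted p 0.317). The highest share, 83.3%, was in CLP+VNS replicate 11. The groups overlapped, with CLP+VNS down to 63.49% and CLP up to 70.95%. The part of this share in the Hbb comparison given above was not tested.

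**Figure D5:**
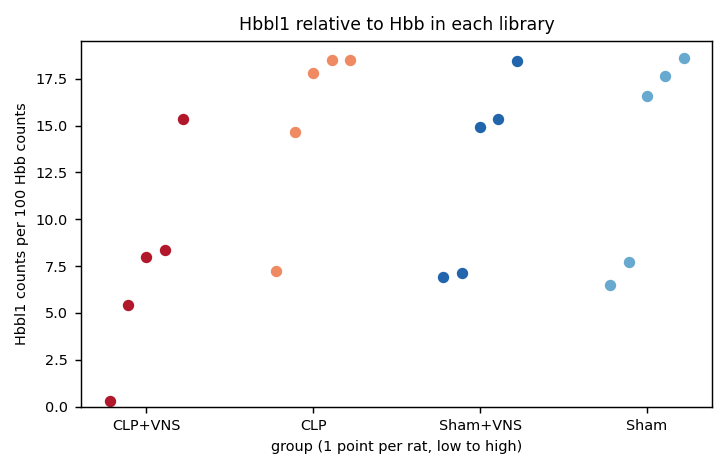
Hbbl1 counts per 100 Hbb counts in each of the 20 libraries, sorted within each group, on a linear axis from 0. Cut at the largest gaps in these same values, the libraries form 3 ranges, 0.317, 5.44 to 8.34 and 14.7 to 18.6. Each of the 4 groups has libraries in both upper ones.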

How the data were processed

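Lung libraries (poly(A) selected, strand-specific, read as pairs, per the labels' protocols) came from 20 rats. Per the submitters' processing notes reads were aligned to mRatBN7.2. Neither aligner, counter nor annotation is stated there. The authors deposited expected counts (estimated counts) per gene, of which 91.5% were whole numbers. The authors also deposited TPM values and FPKM values, scaled for length and library size per the file headers, and a normalized signal of unstated scaling. The deposited FPKM, signal and group averages were not used.

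Counts were rounded and fitted over all 20 libraries with edgeR 4.0.16 in R 4.3.3 (filterByExpr at a minimum count of 10, TMM, robust quasi-likelihood, 16 residual degrees of freedom). Adjusted p-values are Benjamini-Hochberg over 14794 genes, two-sided, called below 0.05. The edgeR p-values set a group difference against the spread between these animals only, estimated with information shared across genes. DESeq2 1.42.0 and limma 3.58.1 on log2(TPM + 0.1) were alternatives. CPM is counts scaled to TMM-adjusted library totals. Of the gene IDs, 18800 were found in the RefSeq table of GRCr8, which updated 1037 symbols, those of Hbb-b2 and Hbbl1 among them. The scripts were tested on simulated data. These gave every gene the same spread, smaller than that of any member, so calls on genes as variable as the members were not tested.

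The members and gene lists were chosen with earlier results of these data known. Of 198 list genes 184 were in the table. Named were the members, globin genes, the 10 genes most and 5 least like the members' mean by within-group r, and up to 4 called genes of each erythroid list with the smallest p; 1 of the 10 most alike is not reported here. Genes that this rule does not name are given as markers of other cells or were chosen after their values were seen.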

Additional observations from a re-analysis of the deposited data

Results flagged for a closer look

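Hemgn in CLP+VNS replicate 5 stood apart from the other animals of its group, at 4.107 CPM where the other 4 had 1.33 to 2.07 CPM. The same library had the highest Hbb and Hba-a2 of all 20. Of 28 sets of 5 values, 1 per gene and group, this was the only one with a sample so far from the rest, and chance flags about 1 set in 20. The log2 change of Hemgn in CLP+VNS against CLP was 0.70 with that library and 0.36 without it, and in CLP+VNS against Sham+VNS it was 0.39 with it and 0.04 without it.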

How the results depend on the processing

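Refits of the whole table under other settings gave 991 results, each for 1 member in 1 comparison. Of these, 5 lost the Ahsp call, none gained one and 35 changed direction, 25 of the 35 with 1 library left out. The largest main change among the 35 was 0.22 on the log2 scale. Results of the same refit are not independent, and many refits left out a library of a group not compared. The labels do not say that equal numbers pair animals, and deviations of same-numbered libraries correlated at -0.143 to 0.178, so the numbers were not taken as pairs. With the replicate number as a block, Ahsp in CLP against Sham was -0.70 (adjusted p 0.148), 0 members were called there, and the block gave 2110 genes in CLP+VNS against Sham+VNS and 0 in CLP+VNS against CLP. The block also changed direction for Ahsp (0.25) and Slc4a1 (0.45) in CLP+VNS against Sham+VNS and for Slc4a1 (0.14) in CLP+VNS against CLP. In CLP against Sham, Hbb was -0.0436 with library totals, -0.0873 with limma and -0.0563 with all globins summed, Alas2 -0.0216 with totals and -0.0254 with limma, and Hemgn -0.0272 with totals and -0.0921 with limma. Higher and lower genes there numbered 2926 and 3029, against 2347 and 3756 with library totals and 1971 and 4211 with limma.

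With 1 library left out, CLP against Sham ran from -0.10 to 0.12 for Hbb, -0.232 to 0.0134 for Hba-a2, -0.12 to 0.17 for Alas2, -0.16 to 0.25 for Hemgn and -1.17 to -0.76 for Ahsp, with 0 to 1 members called. Slc4a1 ran from -0.21 to 0.14 in CLP+VNS against Sham+VNS, Alas2 from -0.102 to 0.325 in Sham+VNS against Sham, and the Epb42 interaction from -0.10 to 0.47. Genes called in CLP+VNS against CLP were 0 with library totals, limma or the 2 groups alone, 144 with DESeq2 and 0 to 277 with 1 library left out (277 without CLP+VNS replicate 1). In Sham+VNS against Sham they were 6 with DESeq2, 1 with the 2 groups alone and 0 to 2 with 1 library left out; for the interaction 6 with DESeq2 and 0 to 3. Epb42 missed the count filter with 2 groups alone in CLP against Sham and CLP+VNS against CLP. The causes were not tested. Counts of 3 to 60 limit Ahsp, Epb42 and Hemgn.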

Other observations

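At transcript level Alas2 had 7 annotated models, and the leading one held 84.9% of its counts (78.1 to 92.7% by library). Ahsp had 4, with 87.5% in the leading one. Slc4a1 had 2, with 72.7% in the leading one; 1 library had no count in that model and 10 had all of theirs in it. The embryonic globin gene Hbe1 had counts in 8 libraries. Its highest level, 3.81 TPM, was in CLP+VNS replicate 11, which held 10 of the 19 counts. The same library had the lowest Hbbl1 per Hbb count.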
